A study of Mus musculus with 6 samples.

Results

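Matrix metalloproteinases (Mmps), Adamts proteases, the protease-like Adamtsl proteins and the tissue inhibitors of metalloproteinases (Timps) were examined as 1 gene family in bulge stem cells (SCs) of the hair follicle with and without integrin-linked kinase (ILK). Members were taken by gene symbol alone, as every Mmp, Adamts, Adamtsl or Timp symbol followed by its number, which gave 51 of the 43274 genes in the tables. They comprise 23 Mmps, 19 Adamts genes, 5 Adamtsl genes and 4 Timps. Of these, 34 averaged 10 or more normalized counts across the 6 libraries and were tested, and 17 fell below that filter and are given by their reads.

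The cells were sorted as CD34+/α6 integrin hi cells from mouse skin at postnatal day (P) 21 and profiled by RNA sequencing in 3 control and 3 ILK-K5 libraries. Control mice were ILK fl/+ K5-Cre animals, with 1 floxed Ilk allele (labelled ILK +/-), and ILK-K5 mice were ILK fl/fl K5-Cre animals with both alleles floxed (labelled ILK -/-). Both genotypes thus carried the Cre transgene, the controls were littermates on the same mixed C57Bl6-129/Sv background, and males and females were distributed at random. K5 drives Cre in basal keratinocytes, so leukocytes or dermal cells carried along in the sort would keep their floxed alleles. The antibodies named for the sort were against CD34 and CD49f (α6 integrin), and none for excluding leukocytes is named. Nothing in the labels says whether the libraries of a genotype came from separate animals, so p-values measure the spread between these samples only. A lower level in a bulk sample can reflect fewer cells of a type or less RNA per cell, and these cannot be told apart.

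Mmps are zinc-dependent proteases that are made as inactive precursors and cleave collagens, basement membrane proteins and cell surface proteins. Adamts proteases cut proteoglycans, procollagens and microfibril proteins, whereas Adamtsl proteins share their ancillary domains but lack the catalytic one. Timps bind the active site of Mmps, and some also inhibit Adam and Adamts proteases. In skin these enzymes remodel the matrix around the hair follicle during the hair cycle and after wounding, and they are made by keratinocytes, fibroblasts and infiltrating leukocytes.

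The libraries held 8228019 to 11969072 reads on genes, with 37.4 to 54.3% of them on the 100 most abundant genes. Ilk itself had 10.6, 16.7 and 38.5 normalized counts in control libraries 1 to 3 and 14.8, 30.9 and 29.2 in the ILK-K5 libraries (adjusted p = 0.933, limma). Because Taf10 and Rrp8, read from the other strand, overlap 76.7% and 12.9% of the exon bases of Ilk, this count did not serve to check the genotypes, and the libraries are named by their labels. Markers of the sorted cells were present in every library, among them Krt15, Lgr5 and Sox9. Cd34, on which the cells were sorted, was lower in ILK-K5 with a log2 fold change of -1.90 (adjusted p = 0.0239, limma).

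In all, 5 members were higher in ILK-K5 SCs by limma on log2(normalized count + 1), with Benjamini-Hochberg adjustment over all 16368 genes tested and a threshold of 0.05. They were Mmp13, Mmp12, Mmp9, Mmp19 and Timp3. Over all genes tested, 2.93% were called higher and 0.599% lower, against 5 and 0 of the 34 members. By group, 4 of 11 tested Mmps, 0 of 17 Adamts genes, 0 of 4 Adamtsl genes and 1 of 2 Timps were called. Members such as Mmp13 and Mmp9 passed the filter only through their ILK-K5 libraries and had to differ, so these counts describe the family and are not evidence of their own. No member was called lower by edgeR either (0.532% of all genes), while DESeq2 called 1, Adamts17 (1.71% of all genes), and 6 higher (4.72%). At an unadjusted p under 0.05 by limma, 13 of the 34 members passed, against 12.3% of all genes tested. The median log2 fold change was 0.36 over the 34 members and 0.0054 over all genes.

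**Figure D1:**
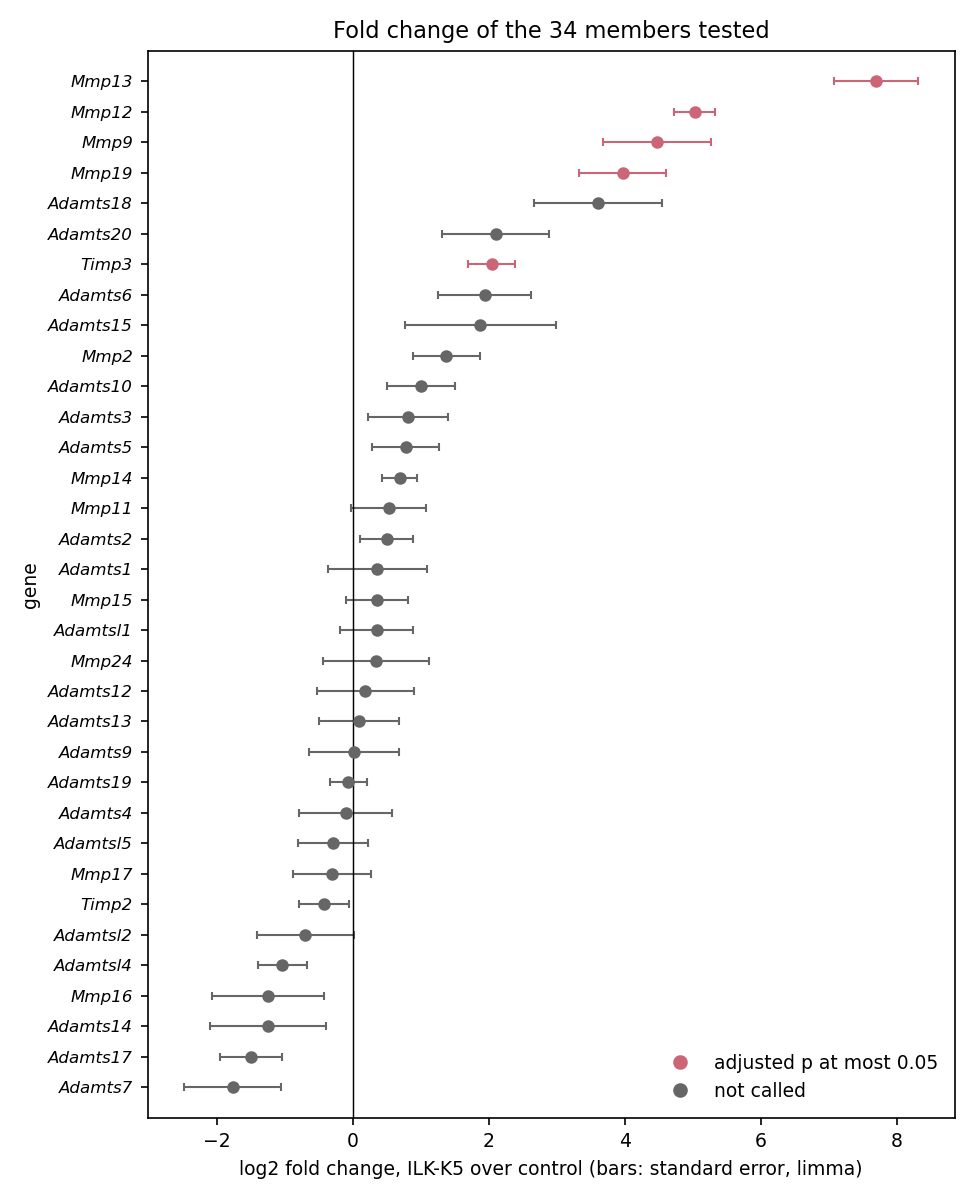
Log2 fold change of ILK-K5 over control for each of the 34 members tested, from limma on log2(normalized count + 1). Points are estimates, bars are standard errors, and the 5 red points are the members called at an adjusted p of at most 0.05. Mmp13, Mmp12, Mmp9 and Mmp19 lie at 3.97 or above, and the estimates run down to -1.77 for Adamts7.

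Mmp13 and Mmp12, the members with the lowest adjusted p-values, are neighbours at one end of a cluster of 10 Mmp genes at chr9:7272514-7699585 (GRCm38), about 427 kb long. The cluster also holds Mmp1b, Mmp3, Mmp1a, Mmp10, Mmp8, Mmp27, Mmp20 and Mmp7. The stretch from 100 bases before to 15 bases from the annotated transcription start is shown here for both called genes and for 3 neighbours with at most 16 reads in either genotype, together with Timp3, a called member outside the cluster. Sequences are those of RefSeq for GRCm38.p6, plus strand. Capitals mark every match to the AP-1 motif TGANTCA or to the TATA box TATAAA, each searched on both strands, and the matches do not overlap.
Mmp13, chr9:7272414-7272528: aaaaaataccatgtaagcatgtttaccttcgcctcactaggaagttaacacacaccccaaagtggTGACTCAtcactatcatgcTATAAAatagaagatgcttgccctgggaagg
Mmp12 start 1, chr9:7344297-7344411: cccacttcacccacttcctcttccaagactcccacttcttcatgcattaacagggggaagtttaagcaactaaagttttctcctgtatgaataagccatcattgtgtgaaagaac
Mmp12 start 2, chr9:7347274-7347388: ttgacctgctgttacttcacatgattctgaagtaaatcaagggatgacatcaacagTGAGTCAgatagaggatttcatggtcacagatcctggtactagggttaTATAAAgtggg
Mmp3, chr9:7445722-7445836: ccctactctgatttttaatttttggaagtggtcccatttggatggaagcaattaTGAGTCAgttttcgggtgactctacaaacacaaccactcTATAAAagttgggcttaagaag
Mmp10, chr9:7502242-7502356: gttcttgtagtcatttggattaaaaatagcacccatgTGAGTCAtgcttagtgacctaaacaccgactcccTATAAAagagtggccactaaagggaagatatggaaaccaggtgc
Mmp8, chr9:7558329-7558443: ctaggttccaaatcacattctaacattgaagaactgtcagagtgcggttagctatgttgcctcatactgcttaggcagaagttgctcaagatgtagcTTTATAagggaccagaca
Timp3, chr10:86300312-86300426: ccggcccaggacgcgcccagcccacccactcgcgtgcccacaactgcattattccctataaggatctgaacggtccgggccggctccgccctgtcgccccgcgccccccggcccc

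In these windows the AP-1 match began 35 bases before the start of Mmp13, 44 before the second start of Mmp12, 46 before Mmp3 and 63 before Mmp10. The first start of Mmp12, Mmp8 and Timp3 had no AP-1 match in the window. RefSeq promoter entries of 300 bases were found for 36 of the 51 members, including all 10 genes of the cluster. Mmp9 and Mmp19 had no entry, so of the called members outside the cluster only Timp3 was searched. The AP-1 motif was in the entries of 8 of the 10 cluster genes and of 0 of the 26 other members, against 7.81% of the 32851 promoters in the table. The TATA box was in 9 of the 10 cluster genes and in 3 of the 26 others (13.6% of all promoters), and the Ets core AGGAAG in 7 and 8 of them (35.4% of all promoters). Both motifs in capitals were thus found for the called genes Mmp13 and Mmp12 and for Mmp3 and Mmp10, neighbours with few reads. For Mmp12 they were at the second start only, where the TATA match began 4 bases after the start. Timp3 had neither, and Mmp8 had only the TATA box. A match is a description of the sequence, not a shown binding site.

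Mmp13, the main interstitial collagenase of rodents, lies at chr9:7272514-7283331 on the plus strand and shares no exon bases with other genes. Control libraries 1 to 3 held 0, 3.04 and 2.18 normalized counts (0, 2 and 3 reads), whereas ILK-K5 libraries 1 to 3 held 553, 581 and 356 (486, 753 and 365 reads). The genotypes were far apart, with the controls at or near 0 and the lowest ILK-K5 library at 356. The fitted log2 fold change was 7.70 (standard error 0.62, adjusted p = 0.000313). With only 5 reads in all controls, that estimate depends on the pseudocount and was 9.08 with a pseudocount of 0.1. Pooled over libraries, the level was 308-fold higher, with a 95% interval of 132 to 949 (Clopper-Pearson) that covers counting error only.

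Mmp12, the macrophage metalloelastase, lies at chr9:7344381-7369499 on the plus strand and shares 2.17% of its exon bases with Mmp1b. It had 64.6, 59.3 and 39.9 normalized counts in the controls and 2102, 1830.2 and 1465 in the ILK-K5 libraries. Every ILK-K5 library stood far above every control, and the spread within each genotype was small beside that gap. Mean levels differed 32.9-fold, and the log2 fold change was 5.03 (standard error 0.30, adjusted p = 8.22e-05). This was the lowest adjusted p of the family.

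The other 8 genes of the cluster held 19 reads in all control and 24 in all ILK-K5 libraries. Mmp27 and Mmp7 (matrilysin) had none in any library, and Mmp1a, Mmp1b, Mmp10 and Mmp20 had at most 3 reads in either genotype. Mmp8, the neutrophil collagenase, had 1 control read and 16 ILK-K5 reads, with at least 3 reads in each ILK-K5 library, so its libraries did not overlap. Its pooled level was 15.4-fold higher in ILK-K5 with a counting interval of 2.39 to 644. Mmp3 (stromelysin-1) went the other way, with 12 control reads and 2 ILK-K5 reads. Its pooled level was 6.25-fold lower with a counting interval of 1.39 to 57.5. One control library held no Mmp3 read, so the genotypes overlapped. These intervals cover counting error only, and limma without a filter called neither Mmp8 nor Mmp3 (adjusted p = 0.300 and 0.831).

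**Figure D2:**
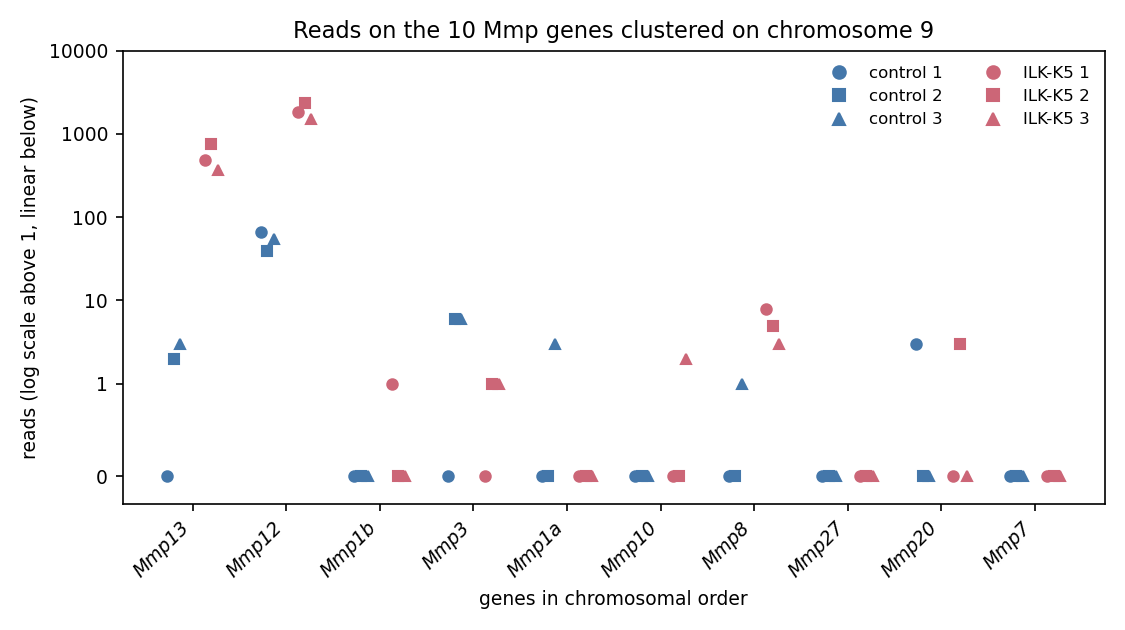
Reads per library on the 10 Mmp genes of the chromosome 9 cluster, in chromosomal order, on a scale that is logarithmic above 1 read and linear below. Blue symbols are control libraries and red symbols ILK-K5 libraries, with 1 shape per library number. Mmp13 and Mmp12 hold 1604 and 5723 ILK-K5 reads, whereas the other 8 genes hold 24 ILK-K5 reads in all.

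Of the gelatinases, which cleave denatured collagen and type IV collagen of basement membranes, Mmp9 was called and Mmp2 was not. Mmp9 (chr2:164940780-164955850, plus strand) had 0, 1.52 and 4.35 normalized counts in the controls (0, 1 and 6 reads) and 41.0, 54.0 and 63.3 in the ILK-K5 libraries (36, 70 and 65 reads). All ILK-K5 libraries lay above all controls, but the level was modest. The log2 fold change was 4.48 (standard error 0.79, adjusted p = 0.0149). The pooled level was 23.4-fold higher with a counting interval of 11.1 to 59.2. The call was lost with a pseudocount of 0.1 (adjusted p = 0.0758) and held in only 2 of the 6 fits that left out 1 library. Leaving out control library 2 gave an adjusted p of 0.0557, and leaving out ILK-K5 library 1, 2 or 3 gave 0.0556, 0.104 and 0.114.

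Mmp2 (gelatinase A) was far more abundant, with 80.1, 137 and 305 normalized counts in controls and 287, 348 and 595 in ILK-K5 libraries. The highest control, library 3, lay above the lowest ILK-K5 library, so the genotypes overlapped. Its log2 fold change of 1.38 (standard error 0.49) had an adjusted p of 0.250. Without control library 3 it became 1.89 with an adjusted p of 0.0463, and a fit with a term for library 1 gave an adjusted p of 0.0484. Mmp2 was called in only 3 of 18 alternative fits. The adjusted p was 0.367 with edgeR, 0.220 with DESeq2 and up to 0.715 by limma when 1 library was left out.

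Mmp19, a secreted Mmp that cleaves basement membrane proteins, lies at chr10:128790910-128800824 on the plus strand. It had 25.1, 4.56 and 21.8 normalized counts in the controls and 386, 185 and 175 in the ILK-K5 libraries. The lowest ILK-K5 library was several times the highest control. The mean level was 14.5-fold higher, and the log2 fold change was 3.97 (standard error 0.64, adjusted p = 0.00968). Exons on the opposite strand overlap 22.3% of its exon bases in Tmem198b and 6.0% in Gm47093, and no strand setting of the counting is given. Tmem198b had 2, 0 and 30 reads in the controls and 29, 47 and 29 in ILK-K5 (adjusted p = 0.240), and Mmp19 had 759 ILK-K5 reads in all. The part of the overlap in the change of Mmp19 was not tested.

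Mmp14, the membrane-type Mmp that activates the Mmp2 precursor, was the most abundant Mmp per length in both genotypes. It had 674, 517 and 506 normalized counts in controls and 1042, 923 and 776 in ILK-K5 libraries. The genotypes did not overlap, but the difference was small. It did not pass the test (log2 fold change 0.69, standard error 0.26, adjusted p = 0.274). Among the other membrane-type genes, Mmp15, Mmp16, Mmp17 and Mmp24 had log2 fold changes of 0.35, -1.25, -0.31 and 0.34, none called, and Mmp25 held 7 control and 35 ILK-K5 reads without overlap. Mmp11 (stromelysin-3), the only tested member of its group, overlapped widely, with 29.9, 48.7 and 130 normalized counts in controls and 72.9, 70.2 and 113 in ILK-K5.

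**Figure D3:**
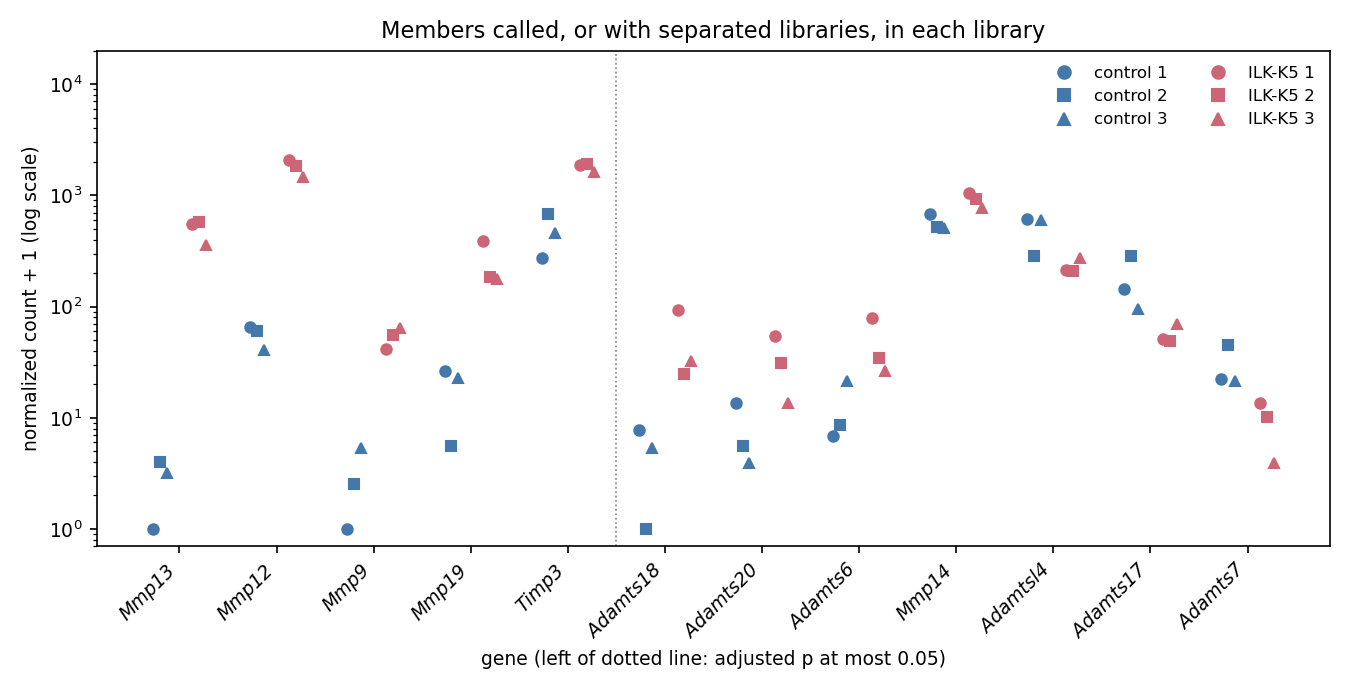
Normalized counts plus 1 (log axis) in each library for the 5 called members, left of the dotted line, and for 7 members that were not called but whose libraries did not overlap between genotypes at an unadjusted p under 0.05. Blue symbols are control libraries and red symbols ILK-K5 libraries, with 1 shape per library number. Mmp13 and Mmp9 lie at or near 0 in the controls, and Adamtsl4, Adamts17 and Adamts7 lie lower in ILK-K5.

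Among the inhibitors, Timp3, which stays bound to the matrix and inhibits also Adam and Adamts proteases, was called higher. The gene (chr10:86300372-86349506, plus strand) had 270.1, 678 and 456 normalized counts in controls and 1882, 1919 and 1623 in ILK-K5 libraries. The ILK-K5 libraries were close together and well above all controls. Mean levels differed 3.86-fold, or 2.04 on the log2 scale (standard error 0.34, adjusted p = 0.0116). Without ILK-K5 library 2 the adjusted p was 0.0603, the only one of 18 alternative fits in which it was not called. The gene lies within Syn3, and 21.3% of its exon bases are shared with Syn3 on the opposite strand. Syn3 had 122, 44 and 70 reads in controls and 313, 229 and 121 in ILK-K5 (log2 fold change 1.39, adjusted p = 0.233), and Timp3 had 5807 ILK-K5 reads in all. The part of this overlap was likewise not tested.

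Timp2, which inhibits Mmps and also takes part in Mmp2 activation on the cell surface, was by far the most abundant member per length. It had 9227, 6163 and 3969 normalized counts in controls and 5922, 3392 and 4654 in ILK-K5. The genotypes overlapped (log2 fold change -0.42, standard error 0.37, adjusted p = 0.790). Timp1 was below the filter with 0, 4.56 and 0.726 normalized counts in controls and 7.97, 23.1 and 20.5 in ILK-K5, and its libraries did not overlap. Pooled, its level was 13.9-fold higher with a counting interval of 5.15 to 52.8, and limma without a filter did not call it (adjusted p = 0.246). Its gene lies within Syn1, which had 5 control reads and 36 ILK-K5 reads. Timp4 had 2 reads, both in ILK-K5 library 2, and no difference was detectable at this depth.

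Levels were compared between genes on the FPKM scale, which divides by gene length. Summed over all 23 Mmps, the level was 36.4, 30.7 and 39.6 FPKM in controls and 121, 109 and 99.2 in ILK-K5 libraries, without overlap. That is 35.6 ± 4.49 against 110 ± 10.7 FPKM (SD, n = 3 each), for which an exact permutation test of 3 against 3 libraries cannot go below p = 0.1. In controls Mmp14 made up 50.5 to 73.1% of this sum, Mmp12 1.43 to 2.73% and Mmp13 at most 0.379%. In ILK-K5 libraries Mmp14 made up 30.9 to 34.1%, Mmp12 20.9 to 24.7% and Mmp13 13.7 to 20.4%. Among all 51 members, Mmp12 stood 16th by mean FPKM in controls and 4th in ILK-K5, and Mmp13 40th and 6th. The summed Timps overlapped at 246, 171 and 110.3 FPKM in controls and 180.5, 116 and 145 in ILK-K5. The ratio of summed Timp to summed Mmp FPKM was 6.76, 5.57 and 2.79 in controls and 1.50, 1.07 and 1.46 in ILK-K5, again without overlap. These are sums of transcript levels, and protein and activity were not measured here.

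**Figure D4:**
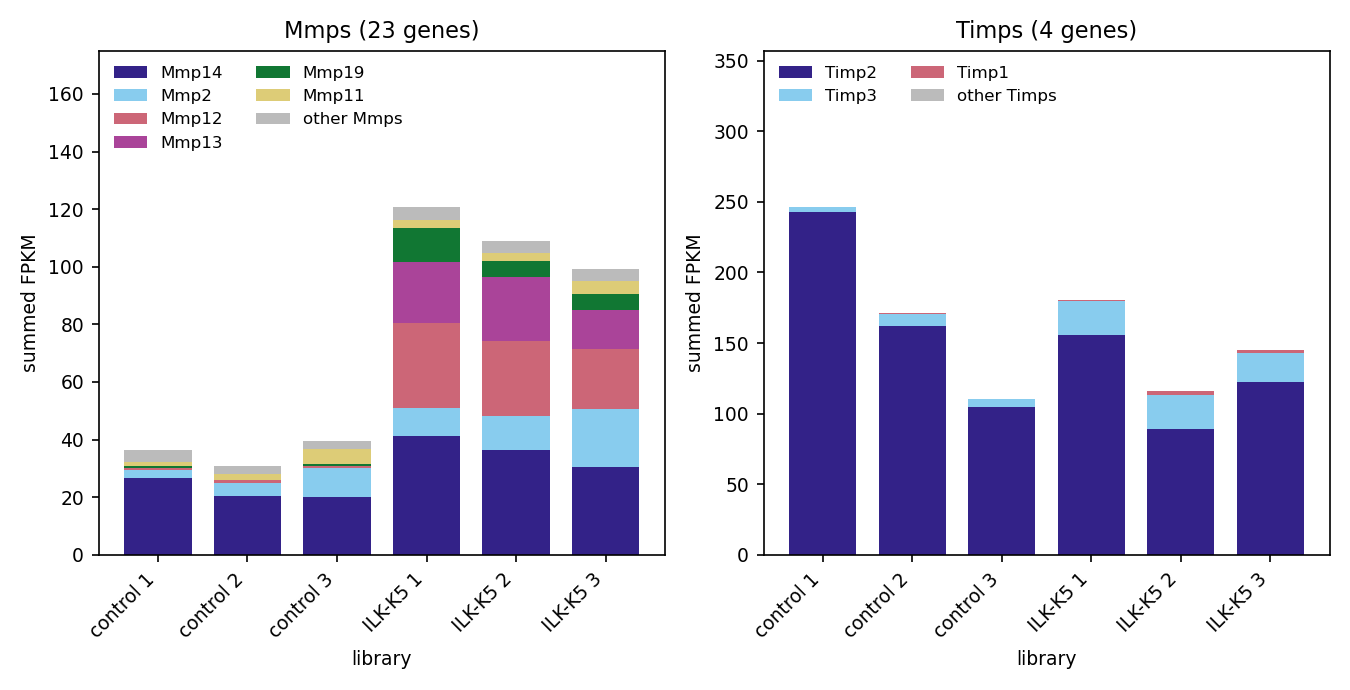
Stacked bars of FPKM for the 23 Mmps (left) and the 4 Timps (right) in each of the 6 libraries, with the most abundant genes in colour and the rest in grey. The Mmp sum lies between 30.7 and 39.6 FPKM in controls and between 99.2 and 121 in ILK-K5. In the Timp panel Timp2 makes up most of every bar.

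None of the 17 tested Adamts genes was called by limma or edgeR, although 5 had an unadjusted p under 0.05 by limma (12.3% of all genes). DESeq2 called Adamts18 higher and Adamts17 lower (4.72% and 1.71% of all genes). Over all genes tested, 10.9% had non-overlapping libraries with ILK-K5 higher and 6.95% with ILK-K5 lower, against 10 and 3 of the 34 tested members. Adamts18 had the largest change of the group, with 6.75, 0 and 4.35 normalized counts in controls and 92.2, 23.9 and 31.2 in ILK-K5. Its libraries did not overlap, with ILK-K5 library 1 the highest. The log2 fold change was 3.60 (standard error 0.94, adjusted p = 0.0836), and DESeq2 called it (adjusted p = 0.00230), as did the limma fits without control library 1 (0.0463) and with a term for library 1 (0.0162). It was called in 4 of 17 alternative fits, and the adjusted p by limma rose to 0.297 when 1 library was left out. Adamts18 averaged 3.70 normalized counts in controls and passed the filter only through its ILK-K5 libraries, so these calls are descriptions.

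Adamts20, the gene mutated in belted mice, had 12.5, 4.56 and 2.90 normalized counts in controls and 53.5, 30.1 and 12.7 in ILK-K5, with a narrow gap between the genotypes. Adamts6, a protease of fibrillin microfibrils, likewise had 5.79, 7.60 and 20.3 against 77.4, 33.2 and 25.3. Their log2 fold changes of 2.10 and 1.94 did not pass (adjusted p = 0.277 and 0.238). With a control mean of 6.67, Adamts20 also passed the filter only through its ILK-K5 libraries.

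Lower values in ILK-K5 were seen for Adamts17, Adamts7 and Adamtsl4, without overlap but also without a limma call. Adamts17, which acts on fibrillin microfibrils, had 142, 286 and 94.3 normalized counts in controls and 50.1, 47.8 and 68.2 in ILK-K5. Its log2 fold change was -1.50 (standard error 0.46, adjusted p = 0.149), and DESeq2 gave an adjusted p of 0.0189. Adamts7, which cleaves cartilage oligomeric matrix protein, was low throughout, with 21.2, 44.1 and 20.3 in controls and 12.5, 9.26 and 2.92 in ILK-K5 (adjusted p = 0.334).

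Adamtsl4, a fibrillin-binding protein and the most abundant Adamtsl gene, had 614, 283 and 604 normalized counts in controls and 211, 209 and 274 in ILK-K5. The lowest control, library 2, was barely above the highest ILK-K5 library. The log2 fold change was -1.04 (standard error 0.36, adjusted p = 0.218). Adamtsl3 was below the filter with 33 control and 8 ILK-K5 reads, and its libraries did not overlap, at 14.5, 9.12 and 8.71 normalized counts in controls and 1.14, 0.771 and 5.84 in ILK-K5. Its pooled level was 4.30-fold lower with a counting interval of 1.95 to 10.8, and limma without a filter did not call it (adjusted p = 0.620). Adamtsl1, Adamtsl2 and Adamtsl5 overlapped.

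Adamts1, a protease of versican and aggrecan, was the most abundant Adamts gene and differed more between libraries than between genotypes. It had 2855, 543 and 654 normalized counts in controls and 3431, 655 and 953 in ILK-K5. Library 1 was several times the other two in both genotypes. The log2 fold change was 0.36 (standard error 0.73, adjusted p = 0.928), and it turned to -0.084 when control library 2 was left out and to -0.35 when ILK-K5 library 1 was. Library 1 was the highest of its genotype on both sides for 12 of the 34 tested members (35.3%), Mmp12, Mmp14, Mmp19, Adamts18 and Timp2 among them, and for 24.9% of all genes tested. With libraries 2 and 3 only, the 5 called members were called again, with log2 fold changes of 6.99 for Mmp13, 5.04 for Mmp12, 4.02 for Mmp9, 4.01 for Mmp19 and 1.66 for Timp3.

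The procollagen N-propeptidases Adamts2, Adamts3 and Adamts14 had log2 fold changes of 0.50, 0.82 and -1.25, with overlapping libraries. The remaining tested Adamts genes ran from -0.10 for Adamts4 to 1.88 for Adamts15, with adjusted p-values of at least 0.495. Adamts10 was the only one of these without overlap. Below the filter were also Adamts8, with 12 control and 13 ILK-K5 reads, Adamts16 with 7 and 3, Mmp28 with 20 and 18, and Mmp21 with 3 and 7. Mmp23 had 35 control reads, 34 of them in library 1, and 2 ILK-K5 reads.

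Genes that act with the family were examined as 4 lists of 49 genes, of which 35 were tested. By limma 5 were called higher and none lower, against 2.93% and 0.599% of all genes. Of these 35 genes, 17 had an unadjusted p under 0.05 (12.3% of all genes), and DESeq2 called 10 higher and 1 lower (4.72% and 1.71% of all genes). Among plasminogen activators, convertases and their inhibitors, 1 of 9 tested genes was called, Plaur, the receptor that holds the urokinase-type activator on the cell surface. It had 0, 0 and 2.90 normalized counts in controls and 128, 170.4 and 146 in ILK-K5 (adjusted p = 0.00124), and it passed the filter only through the ILK-K5 libraries. Plau, that activator itself, did not overlap either at 0, 19.8 and 71.1 against 131, 181 and 113 but was not called (adjusted p = 0.243).

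None of 8 tested other inhibitors and cofactors was called by limma, and 4 had an unadjusted p under 0.05. Reck, a membrane-anchored Mmp inhibitor, had 0.69 with a standard error of 0.51 on the log2 scale (adjusted p = 0.732). Of 9 tested Adam and astacin proteases, 1 was called, Adam19, a membrane-bound sheddase (log2 fold change 2.93, adjusted p = 0.00400). Of 9 tested matrix substrates, 3 were called, namely fibronectin (Fn1, 4.10, adjusted p = 0.000368), the collagen gene Col3a1 (4.13, 0.00447) and the proteoglycan versican (Vcan, 3.33, 0.00397). The medians of the log2 fold changes were 0.42, 0.30, 0.69 and 1.50 in the order of these lists, against 0.0054 over all genes. As the lists were chosen with earlier results of these data known, their counts and medians are descriptions and not evidence of their own.

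Summed markers of several other cell types were also higher in ILK-K5, whereas those of others overlapped or were lower. The summed level of 15 macrophage markers was 944 to 1314 normalized counts in controls and 12793 to 16857 in ILK-K5, and 13 of the 14 tested were called higher. Csf1r had 15.2 to 58.9 in controls and 1793 to 2747 in ILK-K5, and Fcgr1 was at 0 in all controls. Markers such as Fcgr1, Mrc1 and C1qb passed the filter only through the ILK-K5 libraries and had to differ, so the counts of called markers are descriptions. The 6 markers shared by leukocytes summed to 50.2 to 113 and 3883 to 5279, with 6 of 6 called higher.

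Neutrophil markers, 10 in number, summed to 34.8 to 73.3 in controls and 219.7 to 300.02 in ILK-K5. Of these, 4 were tested, and all 4 were higher without overlap (10.9% of all genes). By limma 2 were called, S100a8 and S100a9, and Csf3r and Cxcr2 were not (log2 fold changes 2.69 and 1.26). Ly6g, Elane and Retnlg were at 0 in all ILK-K5 libraries. Their reads in control libraries 1 to 3 were also few, at 11, 2 and 2 for Ly6g, 0, 0 and 1 for Elane, and 3, 0 and 0 for Retnlg. The fibroblast and dermal papilla list of 10 genes summed to 731 to 786 and 1550 to 2529, with 2 of 5 tested genes called. Its genes Col1a1, Col1a2, Col3a1, Lum and Dcn are also in the list of matrix substrates, so the call of Col3a1 counts in both lists. Col1a1, Col1a2 and Col3a1 made up most of that sum in every library, Pdgfra, Twist2, Alpl and Corin were below the filter, and Lum was at 0 in all controls. T cell markers summed to 167 to 193 and 366 to 428 (1 of 5 tested called), and mast cell markers to 0 to 3.04 and 20.1 to 22.4, with 4 of 5 at 0 in ILK-K5. Endothelial markers overlapped (119 to 255 and 133 to 140.03), as did those of differentiated keratinocytes (3055 to 17054 and 4061 to 6755). The melanocyte sum was lower, at 680 to 1308 and 269 to 478, but Mitf made up most of it in every library. Mitf was also the only one called (log2 fold change -1.84, adjusted p = 0.0118, limma). Of the 5 tested melanocyte markers, 3 had log2 fold changes above 0 and 2 below. Tyrp1 was higher in ILK-K5 without overlap (3.29, not called). The bulge SC markers summed to 73794 to 183107 in controls and 53744 to 94597 in ILK-K5, with Cd34 the only one of 10 called. Krt15 and Krt5 together made up most of that sum in every library. Cd34 and Nfatc1 (log2 fold change -0.60, not called) were lower without overlap (6.95% of all genes). Tcf7l1 was higher without overlap (0.39, not called, 10.9% of all genes). The sex genes differed between libraries of both genotypes, with Xist at 7.60 to 55517 in controls and 35.1 to 48377 in ILK-K5. Xist was lowest and the Y-linked Ddx3y highest in control library 2 (7.60 and 876) and ILK-K5 library 3 (35.1 and 765). In the remaining libraries Xist was at 25729 or above and Ddx3y at 2.18 or below. Each genotype thus held male and female libraries, so its libraries did not all come from 1 animal. Same-numbered libraries 2 and 3 differed in sex between the genotypes. By limma 0 of the 5 sex genes were called, with 0 at an unadjusted p under 0.05. The part of these cell types in the changes of Mmp12, Mmp13, Mmp9, Mmp19 and Timp3 was not tested.

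**Figure D5:**
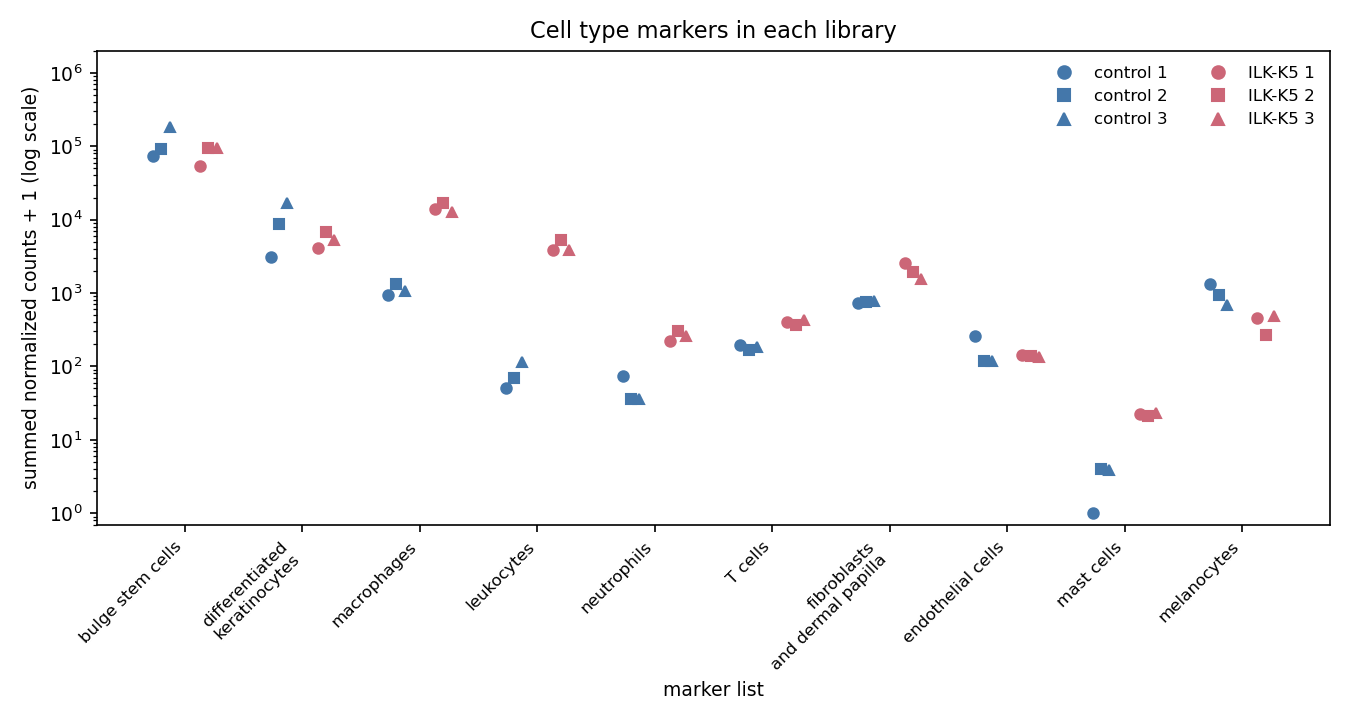
Summed normalized counts plus 1 (log axis) of each cell type marker list in each library. Blue symbols are control libraries and red symbols ILK-K5 libraries, with 1 shape per library number. Macrophage markers sum to 944 to 1314 in controls and 12793 to 16857 in ILK-K5, and bulge SC markers overlap between the genotypes.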

How the data were processed

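RNA of CD34+/α6 integrin hi cells was isolated with TRIzol LS, amplified with the Ovation RNA-Seq System V2 and made into Nextera XT libraries. Reads were aligned to GRCm38, and the submitters' processing notes name TopHat2 2.0.14, Bowtie2 2.2.4 and DESeq2 1.6.3, while the program that counted reads per gene is not given in the sources used here. The signal table deposited by the authors holds counts divided by size factors, and 100% of its values were whole multiples of 1 read (tolerance 0.001), so reads were recovered. The FPKM table deposited by the authors equals that table times 1 constant per gene. Deposited tables of the authors' own comparison (fold changes and p-values) were not used.

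Symbols were found for 42107 of 43274 genes, and coordinates and exons come from GENCODE M21 (GRCm38). Genotypes were compared with limma 3.58.1 (lmFit, eBayes with trend) in R 4.3.3, two-sided, without covariates. Alternatives used edgeR 4.0.16 (quasi-likelihood), DESeq2 1.42.0, TMM scaling, quantile normalization, FPKM (pseudocount 0.1), pseudocounts of 0.1 and 5, no filter, a mean of at least 50, a replicate block, a term for library 1, libraries 2 and 3 only, and each library left out. The scripts were tested on simulated data. Intervals of read ratios at 10 reads or fewer in a genotype are 95% Clopper-Pearson intervals and cover counting error only.

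The members, marker lists and related lists were chosen with earlier results of these data known. Values in all libraries are printed for members called, members not called whose libraries did not overlap at an unadjusted p under 0.05, the most abundant member of each group per length, all Timps, and members named by the study. Other members are given by fold change or reads. Of the related genes, those called plus Reck and Plau are named.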

Additional observations from a re-analysis of the deposited data

How the results depend on the processing

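Mmp12, Mmp13 and Mmp19 were called in all 18 alternative fits. Between 4 and 7 members were called higher in the alternatives other than leaving out a library, and 3 to 6 when 1 library was left out, with 3 without ILK-K5 library 2. DESeq2 called 1 member lower. Of the related genes, DESeq2 called 10 higher and 1 lower, the replicate block 12 and 1, the term for library 1 13 and 1, libraries 2 and 3 only 1 lower, and fits without 1 library 5 to 11 higher and 0 to 1 lower. Over all genes, 479 were called higher and 98 lower. The counts were 772 and 280 with DESeq2, 848 and 269 with the replicate block and 846 and 286 with the term for library 1, and they ranged from 222 to 559 and from 32 to 98 when 1 library was left out. The log2 fold change of Adamts1 ranged from -0.35 to 1.11 when 1 library was left out, reversing to -0.084 without control library 2 and to -0.35 without ILK-K5 library 1. Adamts18 and Mmp2 were called with the replicate block (adjusted p = 0.0117 and 0.0123) and with the term for library 1 (0.0162 and 0.0484). A mean of at least 50 removed Mmp9, and without a filter the median log2 fold change of all genes was -0.10. The cause of these differences was not tested.

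Same-numbered libraries of the 2 genotypes correlated at 0.529, 0.0198 and 0.307 in their deviations from the genotype means, and control library 3 correlated better with ILK-K5 library 2 (0.498). With 3 libraries per genotype these correlations cannot settle whether the numbers mark pairs, and the main fit did not pair them. The labels also give each same-numbered pair a shared library number without saying what it marks. At 8228019 to 11969072 reads per library, 17 members stayed below the filter, and without a filter none of them was called by limma, with Timp1 (adjusted p = 0.246) and Mmp8 (0.300) at an unadjusted p under 0.05. Precision rests on 3 libraries per genotype.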
